A study of Mus musculus with 6 samples.

Results

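The 9 genes Celf4, Rit2, Dpp6, Myt1, Vsnl1, Bex2, Cpne4, F5 and Pla2g5 were nearly silent in sciatic nerves of control mice and were read in every nerve library of mice that lack Rnf40 in Schwann cells. They were chosen by their raw read counts, at most 3 in every control library and at least 20 in every Rnf40ΔSC library. They make up 9 of the 24015 genes in the count tables and 9 of the 13 genes that meet these limits. Because they were selected on the contrast between the genotypes, their own counts are given as a description, and no test of them is used. Celf4, Rit2, Dpp6, Myt1, Vsnl1, Bex2 and Cpne4 are known mainly from neurons and other cells of the nervous system. F5 and Pla2g5 encode secreted proteins of blood coagulation and phospholipid breakdown and are not neuronal genes, so the 9 are described here as genes near 0 in control nerve and not as a neuronal set.

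RNA-Seq was carried out on 3 libraries from control mice and 3 from Rnf40ΔSC mice, each made from a pool of 3 sciatic nerves at postnatal day 14. Control mice carried Rnf40 fl/fl alleles without Cre, and Rnf40ΔSC mice, named cko in the plots, carried Rnf40 fl/fl together with Dhh::Cre. The Dhh promoter drives Cre in the Schwann cell lineage, so that endothelial cells, immune cells and axons of the same nerve keep Rnf40. For both groups, the sample labels give a mixed 129SvJ/C57Bl/6J background, whereas the methods of the study name C3H in place of 129SvJ. The comparison asks how loss of this ubiquitin ligase of histone H2B in Schwann cells alters the transcripts of the whole nerve.

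Reads assigned to genes totalled 1317167, 1992622 and 2468765 in control replicates 1, 2 and 3. The corresponding Rnf40ΔSC libraries held 2184268, 1459387 and 2186710. Levels are given as CPM, counts relative to a library size scaled by TMM, a method that sets it from the bulk of genes, and on this scale 3 reads stood for 1.34 to 2.47 CPM in control and 1.24 to 1.87 CPM in Rnf40ΔSC libraries. For Rnf40 itself, the raw counts were 82, 116 and 165 in control libraries, against 109, 75 and 118 in Rnf40ΔSC libraries. Relative to depth, this was 68.9 ± 4.23 CPM (SD, n = 3) against 47.5 ± 1.15 CPM (SD, n = 3), and all 3 Rnf40ΔSC libraries lay below all 3 control libraries. The log2 fold change was -0.54 (SE 0.14, adjusted p = 0.00242, edgeR quasi-likelihood test, Benjamini-Hochberg). With scaling by total counts it was -0.27 and did not pass (adjusted p = 0.12 by edgeR, over a range of 0.00238 to 0.12 across all alternatives). The counts cover the whole gene and the whole nerve, including cells without Cre.

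Sciatic nerve holds axons of motor and sensory neurons, whereas the cell bodies of these neurons lie in the spinal cord and in ganglia. Most nuclei of the nerve belong to Schwann cells, which pass from an immature through a promyelinating to a myelinating state and share an origin in the neural crest with sensory neurons. Outside the nervous system, many neuronal genes are kept silent by REST, a zinc finger repressor that binds a composite DNA element named RE1 and recruits histone deacetylases and demethylases.

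Promoter sequences were looked up for the 9 genes in the RefSeq table of build GRCm38.p6, which gives 250 bases before to 50 bases after each transcription start. It held 14 entries for 7 of the genes, 3 each for Dpp6 and Myt1, 2 each for Vsnl1, Cpne4 and Pla2g5, and 1 each for Bex2 and F5. Celf4 and Rit2 are named only. Neither part of the RE1 element, TCAGCACC or GGACAGCG, was found on either strand in any of the 14 entries, against 1.65% and 1.26% of all 32851 promoters in the table. The POU octamer ATGCAAAT was also absent from the 14 and was present in 1.74% of all promoters. The EGR motif, searched as GCGTGGGCG or GCGGGGGCG, was found in 1 entry, that of Bex2 (3.47% of all promoters). The SOX motif ACAAAG was found in 4 entries from 3 genes, Myt1, F5 and Pla2g5 (18.7% of all promoters), and AAGTTT, the core of the site that MYT1 itself binds, in 2 entries, both of Myt1 (14.4% of all promoters). A match is a description of the letters and not a site in use, and the absence of a match speaks only for these windows. The 5 entries shown hold such matches in full, in capitals, within 250 bases before to 10 bases after the start, and are written 5′ to 3′ on the strand of the gene. They are shown because they hold the matches, and 3 of the 5 hold the SOX motif. In the Bex2 promoter (chrX:136068227-136068486, minus strand) the capitals mark the EGR motif at the start itself. In the first entry of Myt1 (chr2:181763082-181763341, plus strand) they mark AAGTTT, and in the entry numbered 3 (chr2:181796057-181796316, plus strand) AAGTTT and, at the start, the SOX motif on the opposite strand. In F5 (chr1:164151585-164151844, plus strand) and in the second entry of Pla2g5 (chr4:138863460-138863719, minus strand) they mark the SOX motif, in F5 on the opposite strand.
Bex2: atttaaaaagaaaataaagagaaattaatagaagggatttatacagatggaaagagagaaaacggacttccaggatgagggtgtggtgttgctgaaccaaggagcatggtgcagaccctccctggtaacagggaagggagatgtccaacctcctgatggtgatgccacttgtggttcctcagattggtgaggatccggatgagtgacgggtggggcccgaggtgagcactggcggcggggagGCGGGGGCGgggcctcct
Myt1 entry 1: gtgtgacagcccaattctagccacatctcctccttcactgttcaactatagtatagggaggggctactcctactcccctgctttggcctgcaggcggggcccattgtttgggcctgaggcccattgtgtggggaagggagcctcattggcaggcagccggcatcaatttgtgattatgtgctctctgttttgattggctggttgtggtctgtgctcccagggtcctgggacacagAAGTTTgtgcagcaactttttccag
Myt1 entry 3: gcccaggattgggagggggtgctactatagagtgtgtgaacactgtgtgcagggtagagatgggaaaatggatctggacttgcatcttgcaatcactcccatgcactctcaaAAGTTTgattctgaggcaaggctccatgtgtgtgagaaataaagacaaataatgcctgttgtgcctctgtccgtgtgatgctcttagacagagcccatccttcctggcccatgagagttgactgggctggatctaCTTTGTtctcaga
F5: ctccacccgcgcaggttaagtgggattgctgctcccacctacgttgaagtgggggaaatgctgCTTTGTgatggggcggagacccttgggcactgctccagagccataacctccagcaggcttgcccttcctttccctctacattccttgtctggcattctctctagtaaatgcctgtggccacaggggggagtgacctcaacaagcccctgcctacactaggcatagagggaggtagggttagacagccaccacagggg
Pla2g5 entry 2: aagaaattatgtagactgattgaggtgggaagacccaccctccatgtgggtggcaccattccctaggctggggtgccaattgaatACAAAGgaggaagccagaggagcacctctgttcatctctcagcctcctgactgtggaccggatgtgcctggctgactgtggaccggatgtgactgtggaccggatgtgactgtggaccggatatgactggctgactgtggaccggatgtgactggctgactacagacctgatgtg

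Among the 14 entries the share of G and C ran from 39.3% to 63.3%, with 11 above the median of 52.7% for all promoters. The ratio of observed to expected CpG was above the median of 0.384 in 6 of the 14. It was 0.705 in the second Vsnl1 entry, 0.559 in Bex2 and 0.551 in the first Cpne4 entry, and it was lowest in the second Cpne4 entry with 0.0429 and in the 3 entries of Myt1 with 0.093, 0.0887 and 0.0572. No searched motif was found in more than 3 of the 7 genes with entries.

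Over all 9 genes, the control libraries held 27 reads in total, with 10 of the 27 control values at 0 and none above 3. The Rnf40ΔSC libraries held 1114 reads, with single values from 20 to 84. Summed per library, the 9 genes came to 4.94, 7.35 and 3.57 CPM in control replicates 1, 2 and 3 and to 164, 195 and 174 CPM in the Rnf40ΔSC replicates. The groups do not overlap for any of the 9, which the choice of genes fixes. In bulk nerve, more cells that carry a transcript and more transcript per cell cannot be told apart.

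**Figure D1:**
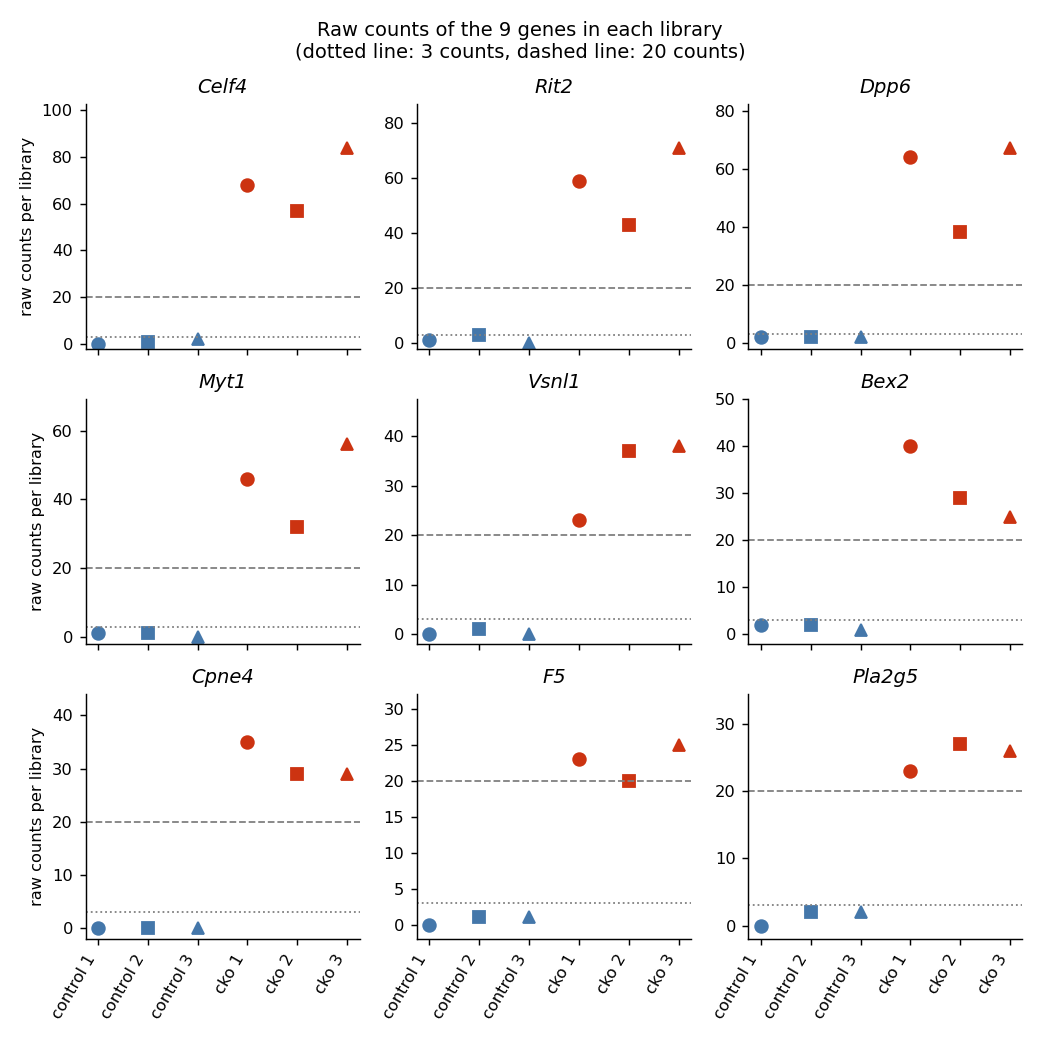
Raw counts of each of the 9 genes (vertical axis) in the 3 control libraries (blue) and the 3 Rnf40ΔSC libraries (red, labelled cko), 1 point per library with its replicate number on the horizontal axis. The dotted and dashed lines mark the limits of 3 and 20 counts that chose the genes, and F5 in Rnf40ΔSC replicate 2 lies on the upper limit with 20 counts.

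Celf4 and Myt1 encode regulators of RNA and of transcription. Celf4 is an RNA-binding protein that controls the processing, stability and translation of neuronal transcripts. It had 0, 1 and 2 raw counts in control replicates 1, 2 and 3 and 68, 57 and 84 in the Rnf40ΔSC replicates. It was the most highly read of the 9 in each Rnf40ΔSC library, and its level was 33.2 ± 3.49 CPM (SD, n = 3). Pooled over libraries, the ratio of Rnf40ΔSC to control was 57.4, with an exact 95% interval of 19.4 to 280 that covers counting error only. Leaving out 1 library moved this ratio between 44.0 and 98.3. Myt1, a zinc finger transcription factor of neural progenitors, oligodendrocyte precursors and endocrine cells, had 1, 1 and 0 counts in control. In the Rnf40ΔSC replicates it had 46, 32 and 56 counts, or 21.0 ± 1.91 CPM (SD, n = 3). Its pooled ratio was 55.2 (95% interval 15 to 460), and ran from 31.5 to 84.7 with 1 library left out.

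Rit2 and Bex2 encode small intracellular signalling proteins. Rit2, a Ras-like GTPase that binds calmodulin and is enriched in neurons, had 1, 3 and 0 counts in control and 59, 43 and 71 in Rnf40ΔSC libraries. Its 3 counts in control replicate 2 put it at the lower limit, and the Rnf40ΔSC libraries lay close together at 27.2 ± 2.04 CPM (SD, n = 3). The pooled ratio was 35.6 (95% interval 13.7 to 132), and 94.2 without control replicate 2. Bex2, a small X-linked protein of a family linked to signalling by the neurotrophin receptor p75, had 2, 2 and 1 counts in control and 40, 29 and 25 in Rnf40ΔSC libraries. Its level was 17.2 and 18.1 CPM in Rnf40ΔSC replicates 1 and 2 and 10.3 CPM in replicate 3, the lowest of the 3 relative to depth. The pooled ratio of 15.5 (95% interval 6.40 to 48.8) was the lowest among the 9.

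Dpp6, Vsnl1 and Cpne4 act at the plasma membrane. Dpp6, a relative of dipeptidyl peptidases without enzyme activity, is an auxiliary subunit of Kv4 potassium channels. It had 2 counts in each control library and 64, 38 and 67 in the Rnf40ΔSC libraries, and it was the only one of the 9 without a 0 or 1 in control. Its level was 26.3 ± 2.23 CPM (SD, n = 3) and its pooled ratio 23.2 (95% interval 10.4 to 64.1). Vsnl1 encodes visinin-like protein, a calcium sensor with EF hands that moves to membranes when it binds calcium. It had 0, 1 and 0 counts in control and 23, 37 and 38 in Rnf40ΔSC libraries. Relative to depth these were 9.87, 23.1 and 15.7 CPM, lowest in replicate 1 and with the largest SD of the 9 relative to the mean. The pooled ratio of 80.7 (95% interval 14.1 to 3220) rests on a single control read, and without that library it became a bound of 17.8. Cpne4, a copine that binds phospholipids through C2 domains in a calcium-dependent way, had 0 counts in all control libraries and 35, 29 and 29 in Rnf40ΔSC libraries. It was at least 25.5-fold higher when the control group is set to a floor of 3 counts over the group, and this bound was 14.6 without control replicate 3 and 16.9 without control replicate 2.

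F5 and Pla2g5 encode secreted proteins. F5, coagulation factor V, is the cofactor of factor Xa in the complex that activates prothrombin and comes mainly from liver and megakaryocytes. It had 0, 1 and 1 counts in control and 23, 20 and 25 in Rnf40ΔSC libraries, the lowest sum of the 9 and a value exactly at the limit of 20 in replicate 2. Its level was 10.9 ± 1.40 CPM (SD, n = 3) and its pooled ratio 28.0 (95% interval 7.46 to 236). Pla2g5, a secreted phospholipase A2 known from macrophages, heart and airway, had 0, 2 and 2 counts in control and 23, 27 and 26 in Rnf40ΔSC libraries. Its level was 9.87, 16.9 and 10.8 CPM, highest in Rnf40ΔSC replicate 2, and its pooled ratio was 15.6 (95% interval 5.87 to 58.9).

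Levels of different genes can be compared only per length of transcript. As CPM per kilobase of exon in Rnf40ΔSC nerve (mean ± SD, n = 3), Bex2 stood first with 16.8 ± 4.70. Vsnl1 with 8.40 ± 3.43 and Celf4 with 8.30 ± 0.873 followed and did not differ beyond their spread. Rit2 had 6.05 ± 0.454 and Pla2g5 4.34 ± 1.32. Myt1 with 3.04 ± 0.276, Cpne4 with 2.98 ± 0.606 and Dpp6 with 2.62 ± 0.222 lay within their spread of each other, and F5 was last with 1.47 ± 0.188. Among the 14967 genes with a length and at least 1 read in Rnf40ΔSC nerve, the median was 4.48, and 4 of the 9 lay above it on the same pooled scale. Bex2 was above 80.1% of these genes, and F5 was above 29.8%. Counts near 0 in control were common, since 10778 genes had at most 3 in every control library, 3902 of them with a read in any library.

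In the GENCODE vM1 annotation of NCBIM37 (mm9), the build that the methods of the study name, Bex2 lies on chromosome X (132601103 to 132602775, minus strand) and spans 1.7 kb. The longest is Dpp6 on chromosome 5 (27143743 to 28054045, plus strand) with 910.3 kb, followed by Cpne4 on chromosome 9 (104449616 to 104936874, plus strand) with 487.3 kb. Vsnl1 lies on chromosome 12 (11332053 to 11443455, minus strand), F5 on chromosome 1 (166081969 to 166150408, plus strand), Myt1 on chromosome 2 (181498037 to 181562502, plus strand) and Pla2g5 on chromosome 4 (138355159 to 138419397, minus strand). Celf4 and Rit2 lie on chromosome 18, with 276.4 and 343.8 kb. The median length of the 9 genes was 111 kb, against 26.0 kb for 10594 tested genes with a model and 34.2 kb for 384 of the genes called higher. On the strand opposite to Dpp6 lies Speer4b, opposite to F5 a long non-coding RNA, and opposite to Pla2g5 a transcript of Pla2g2a, which had 0 counts in every library. Since the strand setting of the counting is not given in the sources used here, reads of such partners cannot be told apart. Annotated genes on the same strand also overlap, a pseudogene (Gm16588) in F5, U1 in Pla2g5, 7SK in Celf4 and a microRNA in Cpne4. Strand would not separate the reads of these.

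The count limits were met by 4 further genes, whose values are likewise given as a description. Lama1, a laminin chain of early basement membranes, had 2, 0 and 3 counts in control and 102, 61 and 121 in Rnf40ΔSC libraries. Cdh8, a type II cadherin of neurons, had 0 in all control libraries and 25, 25 and 37 in Rnf40ΔSC libraries, at least 23.9-fold higher against the floor. Slc1a1, a neuronal glutamate transporter, had 0, 1 and 0 against 39, 33 and 49 counts, and 3110035E14Rik 0, 0 and 2 against 47, 31 and 37. These 4 are as near to 0 in control as the 9, and 2 of them are also genes known from neurons. The mirrored limits, at most 3 counts in every Rnf40ΔSC and at least 20 in every control library, were met by 0 genes. The limits thus pick out genes in 1 direction in these libraries.

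Just outside the limits lay 9 genes with a control maximum of 4 or 5 and 14 genes with an Rnf40ΔSC minimum of 15 to 19. With a control maximum of 4 these were Ncan (0, 4 and 1 against 125, 77 and 118 counts), a proteoglycan of brain matrix, and Crabp1 (0, 4 and 4 against 83, 47 and 101), a retinoic acid binding protein. Cxcl10, an interferon-induced chemokine, had 3, 0 and 4 against 42, 38 and 43 counts, Ptgds, a prostaglandin D synthase, 1, 4 and 3 against 43, 28 and 40, and Diras2, a Ras-like GTPase, 0, 4 and 1 against 35, 21 and 26. On the inner side of the limits, Rit2 reached 3 counts in control, and F5, Vsnl1 and Pla2g5 had minima of 20, 23 and 23 in Rnf40ΔSC libraries. The counts that placed these genes inside or outside the limits differ by a few reads.

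**Figure D2:**
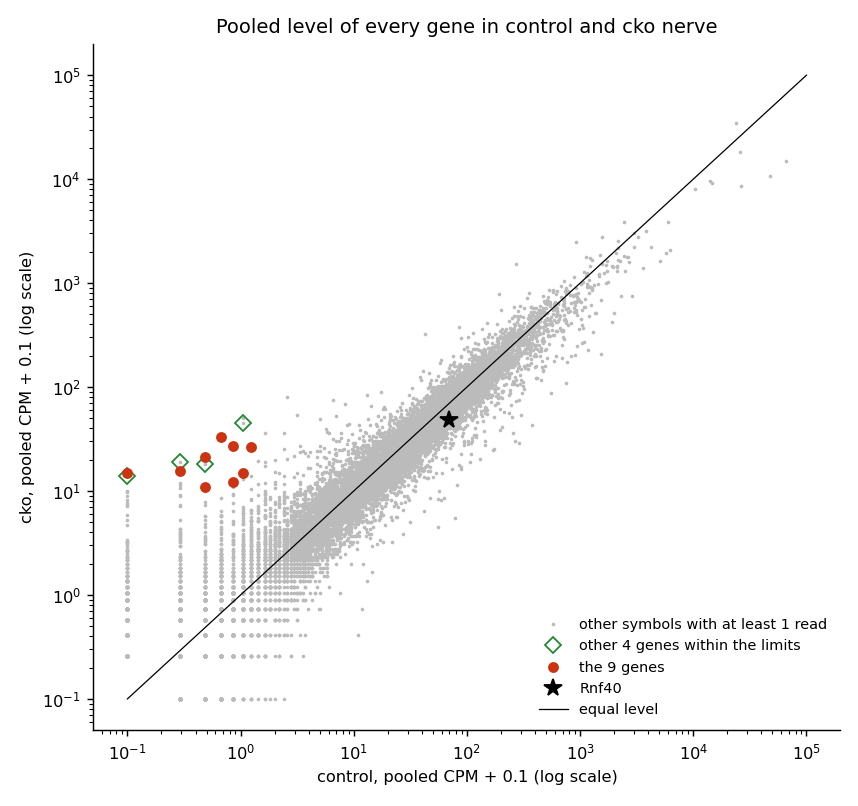
Level of each gene with at least 1 read in control (horizontal axis) and Rnf40ΔSC nerve (vertical axis), as CPM of the counts pooled over 3 libraries with 0.1 added, both axes on a log scale. Red points are the 9 genes, green diamonds the other 4 genes within the same limits, the star Rnf40, and the line equal levels. The 9 genes lie at the left edge, where control levels rest on 0 to 6 pooled reads.

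For other genes, tests come from an edgeR quasi-likelihood fit across 11371 genes, which include the 9. Calls required 3 things together: adjusted p no higher than 0.05, a log2 fold change of 0.8 or more in either direction, and a base mean (normalized count averaged over all libraries) of 20 or more. This called 415 genes higher (3.65%) and 567 lower (4.99%) in Rnf40ΔSC nerves, and the limit on adjusted p alone was passed by 1756 higher (15.4%) and 1841 lower (16.2%) genes. The 9 genes are part of these totals, 4 of the 415 and 9 of the 1756, which their choice by the same contrast fixes and from which nothing is read. Of all calls, 42.3% were higher. Scaling by total counts moved the median log2 fold change of all genes by 0.27, called 1008 higher and 261 lower genes and raised the higher share to 79.4%. All 9 genes passed the filter on low counts, through the Rnf40ΔSC libraries alone, and only Celf4, Rit2, Dpp6 and Myt1 have a base mean of at least 20.

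The families of the 9 genes answer whether relatives of the same genes moved too. In each list given from here on, the most read gene is the one with the highest CPM over all 6 libraries, without regard to length. Of 42 relatives in the tables, 19 had counts enough for a test, and 2 of these were called higher and 0 lower. Cpne1, a widely expressed copine, rose from 60.2 ± 6.69 to 121 ± 18.2 CPM (SD, n = 3 each; log2 fold change 0.98, SE 0.13, adjusted p = 1.02e-07 by edgeR). Ncald, neurocalcin delta, a calcium sensor related to Vsnl1, rose from 40.2 ± 3.89 to 73.7 ± 0.715 CPM (SD, n = 3 each; log2 fold change 0.87, SE 0.14, adjusted p = 7.33e-06 by edgeR). In both genes all 3 Rnf40ΔSC libraries lay above all 3 control libraries. By adjusted p alone 6 relatives were higher and 2 lower, and the median log2 fold change of the 19 was 0.04, against 0.00 for all genes tested. Total-count scaling called 4 relatives, with Celf2 and Ngfrap1 in addition.

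Cpne5 was the relative closest in pattern to its family member among the 9. It had 0, 1 and 0 counts in control and 35, 12 and 25 in Rnf40ΔSC libraries, a pooled ratio of 59.3 (95% interval 10.3 to 2370), and fell short of the count limits by 1 library with 12 counts. Its base mean of 10.4 kept it from being called, while its adjusted p was 1.15e-07 by edgeR at a fitted log2 fold change of 5.46 (SE 0.71), a size that depends on the prior count and that ran from 4.81 to 7.46 with 1 library left out. The other copines did not share this: Cpne3 had 67, 99 and 132 counts in control and 132, 69 and 110 in Rnf40ΔSC libraries, and Cpne6 and Cpne9 had at most 2 in any library. Cpne4 and Cpne5 proteins are 48.1% identical, and no 50-base window of the Cpne4 transcripts occurs in a transcript of another gene.

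Among CELF proteins, Celf2 had the most reads, with 463, 706 and 743 counts in control and 1421, 1052 and 1278 in Rnf40ΔSC libraries. Its log2 fold change of 0.69 (SE 0.10, adjusted p = 3.83e-07 by edgeR) is below the limit of 0.8, and all 3 Rnf40ΔSC libraries lay above the control libraries. Celf3 and Celf6, the closest relatives of Celf4 with 69.7% and 68.4% identical residues and both known from brain, had at most 2 counts in any library. Rit1, the broadly expressed relative of Rit2, had 39, 41 and 65 counts in control and 75, 47 and 60 in Rnf40ΔSC libraries, so that its groups overlap once scaled. Of the peptidase relatives of Dpp6, the active enzymes Dpp4 (log2 fold change -0.45, SE 0.15, adjusted p = 0.016 by edgeR) and Dpp8 (-0.36, SE 0.12, adjusted p = 0.0152) lay lower in Rnf40ΔSC nerves without reaching the limit of 0.8. Neither passed with DESeq2 (0.0774 and 0.0756) or with total-count scaling (0.334 and 0.571, the highest over all alternatives, with the lowest at 0.0103 and 0.00434). Dpp10, the other Kv4 subunit of the family, had at most 2 counts. Myt1l and St18, the relatives of Myt1, had at most 3 and 0 counts, and Hpcal4, whose protein is 89.5% identical to Vsnl1, had 0 in every library.

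Bex2 and Bex1 proteins are 86.8% identical. Bex1 had 1, 0 and 1 counts in control and 0, 1 and 2 in Rnf40ΔSC libraries and did not share the pattern of Bex2. Of 854 windows of 50 bases in the Bex2 transcript, 182 (21.3%) occur unchanged in another gene, 117 in Ngfrap1 and 65 in Bex1, and reads from there would have been dropped as not uniquely mapped, so Bex2 may be undercounted in all libraries. Ngfrap1, also called Bex3 and a partner of the p75 receptor, had 31, 38 and 46 counts in control and 75, 51 and 79 in Rnf40ΔSC libraries. Its log2 fold change was 0.54 (SE 0.19, adjusted p = 0.0298 by edgeR), and DESeq2 did not pass it (adjusted p = 0.119, over a range of 0.00099 to 0.132 across alternatives). F8, the relative of F5, had 3, 8 and 7 counts in control and 5, 1 and 8 in Rnf40ΔSC libraries, too few for a test. Of the 10 other secreted phospholipases, 6 had 0 counts in all libraries, and Pla2g12a, the most read, had 24, 27 and 34 against 31, 25 and 28.

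**Figure D3:**
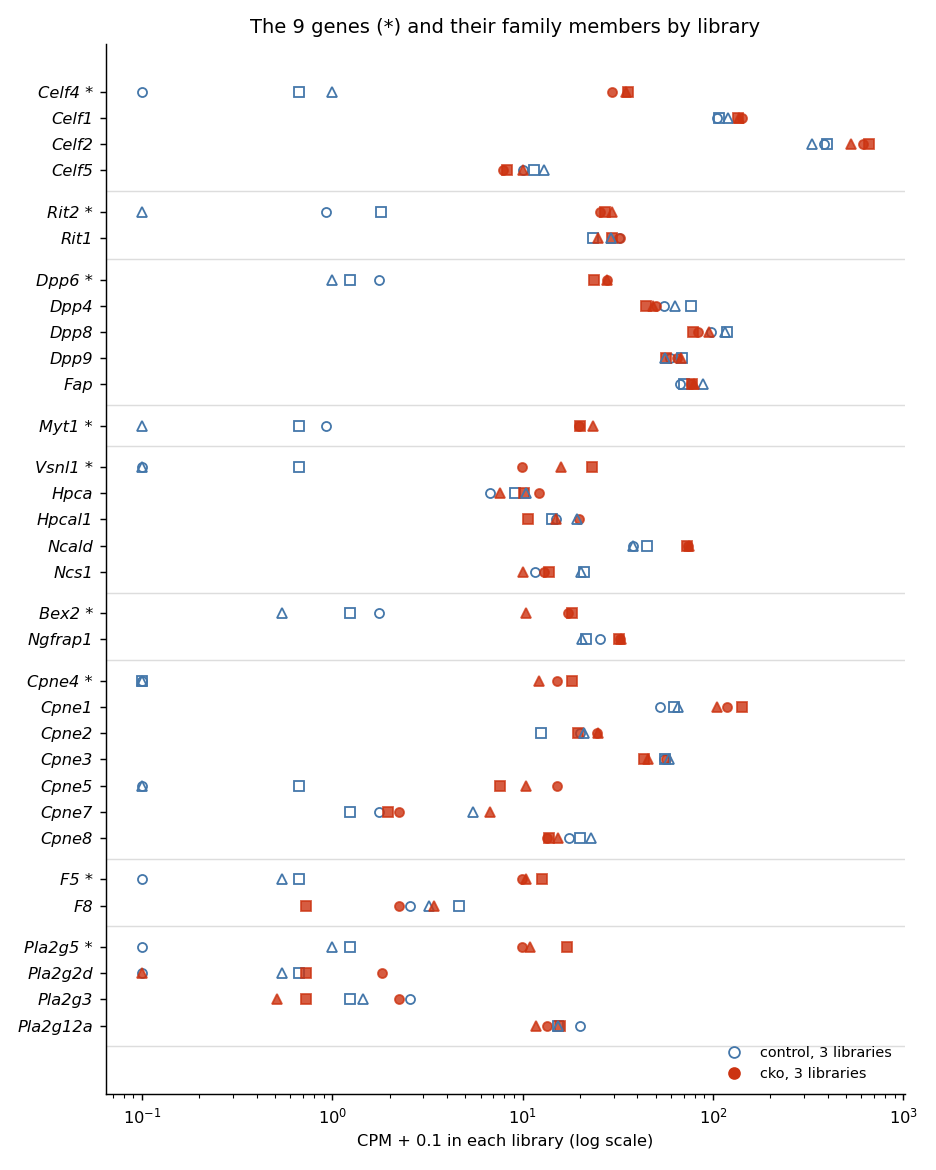
CPM with 0.1 added (horizontal axis, log scale) of the 9 genes (starred) and of their relatives with more than 3 counts in any library, grouped by family. Open blue symbols are the 3 control and filled red symbols the 3 Rnf40ΔSC libraries, with 1 symbol shape per replicate number. Apart from the starred genes, Cpne5 is the relative in which the groups lie farthest apart.

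Kv4 channels combine pore subunits with Dpp6 or Dpp10 and with KChIP calcium sensors. The pore genes were read at few counts: Kcnd1 had 8, 8 and 3 in control and 4, 4 and 6 in Rnf40ΔSC libraries, Kcnd3 3, 6 and 7 against 16, 6 and 8, and Kcnd2 at most 3. Kcnip2, which encodes a KChIP, had 0, 5 and 2 counts in control and 32, 17 and 24 in Rnf40ΔSC libraries, and its log2 fold change was 3.04 (SE 0.50, adjusted p = 9.33e-06 by edgeR) at a base mean of 11.9, too low for a call. Leaving out 1 library moved this fold change between 2.66 and 4.18. Kcnip1 had 0 in control and 5, 3 and 12 in Rnf40ΔSC libraries, at least 5.49-fold higher against the floor. Of the 8 genes other than Dpp6, 2 could be tested and 1 passed by adjusted p alone. The other KChIP genes did not share this: Kcnip3 had 2, 7 and 14 counts in control and 18, 11 and 14 in Rnf40ΔSC libraries, with overlapping levels, and Kcnip4 0, 3 and 2 against 1, 0 and 2.

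Pan-neuronal genes and genes of peripheral neuron subtypes were examined together as markers of neurons. Of 41 such genes, 10 could be tested, 2 were called higher and 1 lower, and their median log2 fold change was 0.02. Map2, a microtubule protein of dendrites, rose from 12.4 ± 1.47 to 37.7 ± 8.27 CPM (SD, n = 3 each; log2 fold change 1.57, SE 0.22, adjusted p = 6.49e-07 by edgeR). Syn1, synapsin I of synaptic vesicles, rose from 14.1 ± 4.61 to 26.7 ± 2.18 CPM (SD, n = 3 each; log2 fold change 0.87, SE 0.23, adjusted p = 0.00354 by edgeR), and was not called without control replicate 1, where the log2 fold change was 0.69. Syp, synaptophysin of the same vesicles, went the other way, from 15.7 ± 4.92 to 9.36 ± 1.04 CPM (SD, n = 3 each; log2 fold change -0.80, SE 0.29, adjusted p = 0.0302 by edgeR), but passed neither with DESeq2 (adjusted p = 0.14) nor without control replicate 3 (0.27, the highest across alternatives, the lowest being 0.0148). By adjusted p alone 3 were higher, including Snap25 (log2 fold change 1.5, SE 0.40, adjusted p = 0.00375 by edgeR), a vesicle fusion protein with 3, 6 and 8 counts in control and 23, 13 and 23 in Rnf40ΔSC libraries.

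Several markers of neurons, named here after their values were seen, were at or near 0 in both groups. Rbfox3, the NeuN antigen, had 0, 0 and 1 counts in control and 1 in each Rnf40ΔSC library, and Elavl4 had at most 1. Isl1, Tac1, Chat, Slc18a3 and Mnx1, which mark sensory and motor neurons, had 0 counts in all 6 libraries, and Scn10a 1 count in 1 library. Other neuron markers held more reads in 1 of the groups, among them Snap25, given above. Syt1 had 0, 0 and 2 counts in control and 6, 4 and 2 in Rnf40ΔSC libraries. P2rx3 went the other way, with 0, 5 and 9 against 1, 0 and 0, and both were too low for a test. None of the 22 subtype genes passed the filter on low counts, and 18 of them had at most 3 counts in every library. Summed, these 22 genes came to 7.42, 11.9 and 11.6 CPM in control and 14.2, 14.4 and 7.45 CPM in Rnf40ΔSC replicates 1, 2 and 3, with most reads from Scn9a. Summed pan-neuronal genes ran from 136 to 152 CPM in control and from 168 to 192 CPM in Rnf40ΔSC libraries. Uchl1, a ubiquitin hydrolase, had the most reads of them over all 6 libraries.

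**Figure D4:**
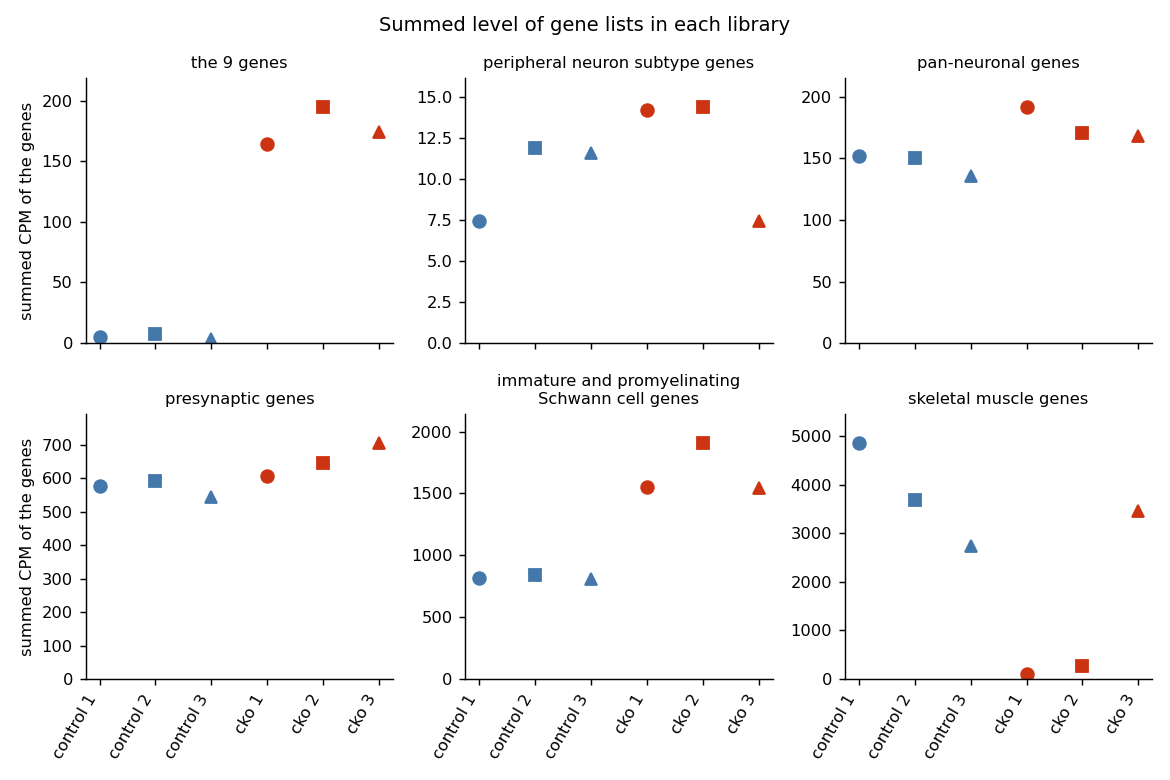
Summed CPM (vertical axis, from 0) of the 9 genes and of 5 gene lists in each of the 3 control (blue) and 3 Rnf40ΔSC (red, labelled cko) libraries. The 9 genes and the immature Schwann cell genes separate the groups widely, the neuron subtype genes overlap, and the skeletal muscle genes are low in Rnf40ΔSC replicates 1 and 2 only.

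Presynaptic genes and neuronal RNA-binding proteins extend this view. Of 20 presynaptic genes, 15 were tested, the median log2 fold change was 0.68, and by adjusted p alone 9 were higher and 1 lower. Syn3 was called beside Syn1, with a log2 fold change of 1.10 (SE 0.16, adjusted p = 7.15e-07 by edgeR). Vamp2, the most read, had 401, 622 and 681 counts in control and 626, 443 and 762 in Rnf40ΔSC libraries, with overlapping levels. Among 13 neuronal RNA-binding proteins, the class to which Celf4 belongs, 7 were tested. None was called by edgeR, in either direction, and 1, Ptbp2, passed by adjusted p alone (log2 fold change 0.31, SE 0.12, adjusted p = 0.0412 by edgeR). Ptbp2 did not pass with DESeq2 (0.133; 0.000149 to 0.146 across alternatives), and Ptbp1, the most read, had 121, 204 and 281 against 291, 199 and 361 counts.

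Rest, which encodes the repressor REST, was read at 5, 6 and 11 counts in control and 11, 11 and 8 in Rnf40ΔSC libraries, too few for a test. Of its 8 corepressors tested, none was called, and by adjusted p alone 2 were higher and 1 lower. Kdm1a, a histone demethylase, had a log2 fold change of 0.66 (SE 0.13, adjusted p = 0.000214 by edgeR), and Hdac2, a histone deacetylase and the most read of them, 0.41 (SE 0.10, adjusted p = 0.00245 by edgeR). Ehmt2, a methyltransferase of histone H3, had -0.58 (SE 0.13, adjusted p = 0.000721 by edgeR) and did not pass with total-count scaling (0.0636; 4.44e-05 to 0.0636 across alternatives). Each of the 3 had Rnf40ΔSC and control libraries that did not overlap.

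Genes known to carry RE1 elements moved in both directions. Of 24 such genes, 12 were tested, 3 were called higher and 2 lower, by adjusted p alone 6 were higher and 2 lower, and the median was 0.50, also with Calb1 at its bound. Gria2, an AMPA receptor subunit, rose from 6, 9 and 11 counts in control to 108, 89 and 113 in Rnf40ΔSC libraries, a log2 fold change of 3.29 (SE 0.24, adjusted p = 1.06e-13 by edgeR). Syt4, a synaptotagmin of dense-core vesicles, rose from 10, 24 and 32 to 77, 69 and 83 counts (log2 fold change 1.54, SE 0.22, adjusted p = 9.21e-07 by edgeR), and Syn1 was the other gene called higher. L1cam, an adhesion molecule of axons and immature and non-myelinating Schwann cells, fell from 128, 238 and 263 to 80, 54 and 73 counts (log2 fold change -1.87, SE 0.14, adjusted p = 7.64e-14 by edgeR). Syp was the other gene called lower, a call that was lost under 9 of the 12 other settings of the fit, leaving 1 gene lower. Calb1, the calcium buffer calbindin, had 0 in all control libraries and 13, 19 and 16 in Rnf40ΔSC libraries, at least 13.2-fold higher against the floor and below the count limits of the 9. Vgf and Bdnf had 0 counts in every library.

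Genes of immature and promyelinating Schwann cells were compared because this lineage carries the deletion. Of 13 such genes, 11 were tested, 5 were called higher and 2 lower, by adjusted p alone 6 were higher and 2 lower, and the median log2 fold change was 0.90. Pou3f1, the POU factor of promyelinating cells and the most read of the list, rose from 197 ± 22.9 to 810 ± 152 CPM (SD, n = 3 each; log2 fold change 2.05, SE 0.12, adjusted p = 9.27e-12 by edgeR). Sox2, Pou3f2, the adhesion molecule Ncam1 and the neural crest factor Foxd3 were also called higher, with log2 fold changes of 1.96, 1.82, 1.16 and 0.90. Foxd3 was not called without control replicate 1, where its log2 fold change was 0.76, or without Rnf40ΔSC replicate 2. L1cam and Ngfr, the p75 receptor, were called lower, the latter with a log2 fold change of -0.90 (SE 0.12, adjusted p = 3.63e-07 by edgeR). The call of Ngfr was lost with total-count scaling (-0.63) and without control replicate 3, leaving L1cam alone. The summed list ran from 807 to 844 CPM in control and from 1540 to 1910 CPM in Rnf40ΔSC libraries, highest in replicate 2, which was also highest for the sum of the 9 genes. Of 9 repair Schwann cell genes, 5 had at most 3 counts in every library, and of the 2 tested, including Jun, the most read, with 124, 193 and 201 against 258, 190 and 229 counts, none was called by edgeR. The growth factor gene Btc, with 0, 1 and 4 against 14, 5 and 19 counts, and the peptide gene Ucn2, with 1, 1 and 3 against 10, 6 and 15, were too low for a test, and their groups did not overlap.

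Genes of Schwann cell identity and myelin were read in all 6 libraries. Of 8 such genes, all of them tested, 4 were called lower and 0 higher, and the median log2 fold change was -0.84. By adjusted p alone 7 were lower and 1 higher. Among those called lower in Rnf40ΔSC nerves by edgeR were the myelin genes Mbp and Prx and the calcium-binding protein gene S100b. Their log2 fold changes were -1.63, -1.59 and -0.89, the last call being lost with total-count scaling (-0.62). Sox10, the factor that marks the lineage, had 603, 968 and 1259 counts in control and 760, 476 and 742 in Rnf40ΔSC libraries. Relative to depth it fell from 535 ± 34.3 to 310 ± 14.7 CPM (SD, n = 3 each), and the groups did not overlap. Its log2 fold change of -0.79 (SE 0.09, adjusted p = 8.8e-09 by edgeR) lay just short of the limit of 0.8 for a call. The part of these values in those of the 9 genes was not tested.

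Lists of coagulation, liver, platelet and macrophage genes are given beside F5 and Pla2g5, and their part in the counts of these 2 genes was not tested. Of 19 other coagulation factors and inhibitors, 6 were tested, none was called and 3 were lower by adjusted p alone, and F2, F7, F9, F11, F13b, Proc, Fga, Fgb and Fgg had 0 counts in all 6 libraries. Of these 3 lower genes, Thbd and Pros1 missed the limit under some alternatives (highest adjusted p 0.0863 and 0.454 by edgeR or DESeq2). F13a1, a factor XIII subunit made by macrophages, had a log2 fold change of -0.67 (SE 0.14, adjusted p = 0.000176 by edgeR), and Vwf, the most read, had 185, 209 and 296 against 217, 161 and 353 counts. Of 6 liver genes, 4 had at most 3 counts in every library and 1, Fga, 0 in all. Cyp2e1, the most read, had 15, 2 and 66 against 19, 4 and 18 counts, and the liver list summed to 13.2, 1.13 and 31.3 CPM in control and 9.88, 5 and 7.86 CPM in Rnf40ΔSC libraries. Of 7 megakaryocyte and platelet genes, Ppbp had 0 counts in all libraries and Gp9 at most 1, none of the 3 tested was called, and the sum ran from 160 to 210 CPM in control and from 155 to 187 CPM in Rnf40ΔSC libraries, with most reads from Vwf. Of 11 macrophage genes, 10 were tested, 7 were lower by adjusted p alone and 1, Cd68, was called lower, a call lost with total-count scaling, under the replicate block and without control replicate 3 or Rnf40ΔSC replicate 2, with a summed level of 486 to 536 CPM in control and 354 to 365 CPM in Rnf40ΔSC libraries, with most reads from Csf1r.

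Markers of other cells that a nerve pool can hold were set beside the 9 genes. Skeletal muscle genes, with most reads from Myh4, summed to 4860, 3680 and 2740 CPM in control and to 113, 273 and 3460 CPM in Rnf40ΔSC replicates 1, 2 and 3. The 9 genes had 164, 195 and 174 CPM in those 3 replicates, and the part of muscle in these values was not tested. None of the 15 muscle genes was called. Melanocytes share the Schwann cell lineage: of 7 melanocyte genes, Tyr and Mlana had 0 counts in all libraries, while Dct with 1, 6 and 5 against 18, 15 and 25 counts and Tyrp1 with 2, 5 and 1 against 11, 19 and 28 were higher by adjusted p alone (0.000707 and 0.000289 by edgeR, log2 fold changes 1.97 and 2.53, SE 0.45 and 0.53). The melanocyte sum, with most reads from Mitf, ran from 51.9 to 63.9 CPM in control and from 69.5 to 76.3 CPM in Rnf40ΔSC libraries. Of 8 adipocyte genes tested, 4 were lower by adjusted p alone and 3 were called lower, namely Plin1, Cfd and Pck1 with log2 fold changes of -1.31, -0.95 and -0.90, and Fabp4, a fatty acid binding protein, was the most read. The calls of Cfd and Pck1 were lost with total-count scaling (-0.69 and -0.63) and in some fits with 1 library left out. Of 5 endothelial genes, 4 were lower by adjusted p alone and 1, the tight junction gene Cldn5, was called lower with a log2 fold change of -1.12, and the cadherin Cdh5 was the most read. Cdh5 was among the 4 but did not pass under every alternative (highest adjusted p 0.0598 by edgeR or DESeq2). Of 7 fibroblast and perineurial genes, with most reads from the collagen gene Col1a2, 6 were lower by adjusted p alone. Y-linked genes had 0 counts in control replicate 1 and Rnf40ΔSC replicate 2 and 246 to 405 in the other libraries, and Xist, the most read of the sex-linked genes, had 631, 320 and 407 counts in control and 692, 1179 and 1167 in Rnf40ΔSC libraries. X-linked Bex2 had 17.2, 18.1 and 10.3 CPM in the Rnf40ΔSC replicates, and the part of sex in this order was not tested.

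The nearest annotated neighbours of the 9 genes with an entry in the tables were compared to see whether whole regions moved. Of 17 neighbours, 9 were tested, and 1 was called higher and 0 lower. This was Syt4, 120.5 kb from Rit2 and also among the genes with RE1 elements. Pik3c3, which lies between Celf4 and Rit2 and encodes a lipid kinase, had 37, 50 and 72 counts in control and 103, 52 and 100 in Rnf40ΔSC libraries and was not called. Smc6, next to Vsnl1, passed by adjusted p alone with a log2 fold change of -0.38 (SE 0.14, adjusted p = 0.0419 by edgeR; 0.0126 to 0.596 across alternatives), in the direction opposite to Vsnl1. Selp beside F5 had 8, 7 and 10 against 9, 9 and 8 counts, Nxf3 beside Bex2 had 0 in every library, and Pla2g2d and Pla2g2e beside Pla2g5 had at most 4. Pcmtd2 near Myt1, the most read neighbour, had 96, 159 and 185 against 216, 158 and 220 counts. The median log2 fold change of the 9 neighbours tested was 0.36.

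Among 13605 other genes with a mean of at least 1 CPM, the 5 whose log2 CPM followed the mean of the 9 most closely over the 6 libraries were Car10, Nav1, Pou3f2, Gcnt1 and Slitrk1, with Pearson's r of 0.999, 0.999, 0.999, 0.998 and 0.998. These correlations describe 6 libraries in 2 groups, and 72 genes had an r above 0.99. Unlike the 9, these 5 genes were read in control. Car10, a carbonic anhydrase-related protein, had 13, 22 and 24 counts in control and 86, 68 and 88 in Rnf40ΔSC libraries. Nav1, a neuron navigator protein that binds microtubules, had 412, 681 and 763 against 1784, 1377 and 1936 counts. Slitrk1, a synaptic adhesion protein, had 14, 22 and 27 against 76, 58 and 82 counts. Gcnt1, a glycosyltransferase, had 22, 35 and 40 against 114, 83 and 130 counts. In Pou3f2, already named among the promyelinating genes, 49, 82 and 83 counts stood against 321, 259 and 331.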

How the data were processed

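The authors sequenced RNA of pooled sciatic nerves on an Illumina instrument, counted the uniquely mapped reads of each gene by HTSeq, and deposited these raw counts without normalization. The submitters' processing notes list Bowtie2 2.1.0 and the builds mm9 and mm10, whereas the methods of the study name TopHat and mm9, and the methods name a directional kit where the labels name NEB Next Ultra. The annotation and strand setting are not given in the sources used here.

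Genotype and replicate number came from the sample labels. The test used edgeR 4.0.16 under R 4.3.3 (filterByExpr, TMM, robust quasi-likelihood fit, genotype as the only term, Benjamini-Hochberg adjustment over 11371 genes), after the script had been tested on simulated data. Levels are CPM of the TMM-scaled library size. Intervals are exact binomial, conditional on the pooled counts, at a level of 95%, and like the floor of 3 counts they cover counting error only. For genes chosen by the count limits they take no account of that choice. Protein identity came from global alignment of the longest coding sequence per gene in GENCODE vM1.

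The members and gene lists were chosen with earlier results of these data known. Genes were named by rule: the 9 genes, Rnf40, family members called or else the most read, in each other list the called genes (4 by size if more than 5) and the most read over all 6 libraries, other genes within or just outside the limits (at most 5), and the 5 most similar profiles. Some genes that this rule covers are not reported here. Other genes are named after their values were seen, among them those that passed by adjusted p alone and markers at 0. Alternatives were RLE or total-count scaling, DESeq2 1.42.0 without a fold-change prior, no filter or at least 10 counts in 3 libraries, blocking on replicate number, omission of single libraries and other count limits. The call by adjusted p alone was added after seeing the data.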

Additional observations from a re-analysis of the deposited data

How the results depend on the processing

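Among the settings of the fit, total-count scaling moved the calls farthest. It called 1008 higher and 261 lower genes and 4 relatives of the 9 genes, and left Rnf40 at a log2 fold change of -0.27, no longer past the limit. This scaling shifts all genes upwards. The lower calls of Ngfr, S100b, Cfd, Pck1, Cd68 and Syp were lost with it. The limit on adjusted p alone, chosen after seeing the data, was passed by 1756 higher and 1841 lower genes, 8 relatives, 6 RE1 genes higher and 2 neighbours, since it drops the limits on fold change and base mean. With each library left out in turn, higher calls ran from 371 to 469 and lower calls from 548 to 697, the Rnf40 log2 fold change from -0.58 to -0.48, neuronal markers called higher from 1 to 2 (1 without control replicate 1), RE1 genes called higher from 2 to 3 and immature Schwann cell genes called higher from 4 to 5, while lower calls in that list went from 2 to 1 without control replicate 3. Relatives stayed at 2 and neighbours at 1. Without 1 library, the log2 fold change of Foxd3 fell to 0.76, S100b to -0.78, Cfd to -0.76, Pck1 to -0.60 and Cd68 to -0.55 at the smallest, below the limit for a call, and Cfd missed the limit on adjusted p without Rnf40ΔSC replicate 2 (0.0614) or 3 (0.0797; 9.85e-15 to 0.0797 across alternatives by edgeR or DESeq2). The cause of each of these shifts was not tested.

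With the replicate number as a block (replicate block), 408 genes were called higher and 566 lower, 2 relatives, 2 neuronal markers, 3 RE1 genes and 5 immature Schwann cell genes higher and 1 neighbour, with Rnf40 at -0.54. The lower calls of Syp and Cd68 were lost on fold change, and no gene refitted here crossed the limit on adjusted p. Same-numbered libraries did not deviate together (r from -0.09 to -0.02). Pairing by number was thus not evident, but so few libraries cannot exclude it.

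In 668 refits of 56 single genes beside Rnf40, 605 kept their side of the limit on adjusted p, 63 lost it, and none changed direction. With 2 as the highest control count allowed, 11 genes met the limits, with 5 allowed 22, with a minimum of 10 or 30 in Rnf40ΔSC libraries 48 or 7, and with both limits at the size of the smallest library 11. The pooled ratios rest on 0 to 6 control reads: leaving out 1 library moved that of Vsnl1 between 46.1 and 97.6 (without control replicate 2, where no control read is left, a bound of 17.8 stands in its place), Celf4 between 44.0 and 98.3, Rit2 between 20.3 and 94.2, Myt1 between 31.5 and 84.7 and the bound of Cpne4 between 14.6 and 28.4. With these depths a transcript at 1 CPM gives about 1 to 2 reads in a library, so the 9 genes cannot be called absent from control nerve.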
